A study of Mus musculus with 8 samples.

Results

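Iron enters and leaves retinal cells through a small set of proteins, and the transcripts of 10 of them are described here in mouse retinas with choroidal neovascularization (CNV), the growth of vessels from the choroid under the retina. The genes are Lcn2, Trf, Tfrc, Cp, Heph, Fth1, Ftl1, Slc40a1, Slc11a2 and Hmox1, taken by symbol from the 25477 genes of the count table. All 10 were found, and all 10 were among the 16861 genes that passed the filter on low counts. The study compared 4 retina libraries with the genotype label PD-L1 knockout, titled KO-CNV, with 4 labelled control, titled WT-CNV. PD-L1, the product of Cd274, is a surface ligand that restrains immune cells. Both groups carry CNV, so no retina without it enters the comparison. The sources used here give no strain, age or sex, no way or time of CNV induction and no deleted part of Cd274. Nothing in the labels says that the libraries came from separate animals, so p-values measure the spread between these libraries, which may be technical.

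Iron circulates bound to transferrin (Trf), which cells take up with the transferrin receptor (Tfrc). The transporter DMT1 (Slc11a2) carries the released iron out of the endosome, ferritin (heavy chain Fth1, light chain Ftl1) stores it, and ferroportin (Slc40a1) exports it. Exported iron is oxidised by ceruloplasmin (Cp) and hephaestin (Heph), copper enzymes of a common family, before transferrin can bind it. Haem oxygenase 1 (Hmox1) frees iron from haem, and lipocalin-2 (Lcn2) binds the iron-carrying siderophores of bacteria and is a protein of the acute-phase response. In the retina, loss of both Cp and Heph is known to cause iron overload, and iron excess harms photoreceptors and pigment epithelium.

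Much of this system is controlled after transcription. Iron regulatory proteins bind a short hairpin, the iron-responsive element (IRE), when iron is low. In a 5′ UTR the bound hairpin blocks translation, and in the 3′ UTR of Tfrc it protects the messenger from decay. The UTRs of GENCODE M21 transcripts (build GRCm38) were searched on the sense strand for the loop CAGTGN between 5 paired bases on each side, with an unpaired C before the upper stem. Of the 10 genes, 3 held it in the 5′ UTR (Fth1, Ftl1 and Slc40a1) and 1 in the 3′ UTR (Tfrc, at 4 places). Over all protein-coding genes the share was 0.144% for 5′ UTRs (30 of 20899 genes) and 0.609% for 3′ UTRs (128 of 21022). The hairpins are printed because they show where, in 4 of the 10 genes, the letters match this element. Each is given as 27 bases, 5′ to 3′ on the sense strand, with the unpaired C and the loop in capitals.
Fth1, 5′ UTR, chr19:9982733-9982759, plus strand: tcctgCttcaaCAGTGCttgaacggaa
Ftl1, 5′ UTR, chr7:45459780-45459806, minus strand: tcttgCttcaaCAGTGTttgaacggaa
Slc40a1, 5′ UTR, chr1:45925466-45925492, minus strand: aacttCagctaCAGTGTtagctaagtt
Tfrc, 3′ UTR, chr16:32631220-32631246, plus strand: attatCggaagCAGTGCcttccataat
Tfrc, 3′ UTR, chr16:32631599-32631625, plus strand: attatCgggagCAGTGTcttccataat
Tfrc, 3′ UTR, chr16:32631664-32631690, plus strand: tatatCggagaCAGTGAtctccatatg
Tfrc, 3′ UTR, chr16:32631711-32631737, plus strand: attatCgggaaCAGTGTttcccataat
The match is of letters only, and a hairpin with an imperfect upper stem is not found by this search. Elements beyond those printed, in these or the other genes, may thus be missed.

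Library totals ran from 31743404 to 36438248 counts. Cd274 held 9 to 15 counts in the knockouts and 117 to 165 in the controls. Control 4 lay closest to the knockouts in the first principal component, and 3 libraries (knockout 3, controls 2 and 3) were rich in lens transcripts, at 1677 to 5246 CPM (counts scaled to the library) against at most 41.7 CPM elsewhere. The retina label was met by rod genes, which summed to 43119 to 61393 CPM in all 8 libraries. Among all 16861 tested genes 430, or 2.55%, passed an adjusted p of 0.05 (edgeR, Benjamini-Hochberg over all genes), with 1.2% of all genes higher and 1.35% lower in the knockout.

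Of the 10 iron genes, 3 rose in the knockout, none fell and 7 did not pass, where 1.2% of all genes were higher, 1.35% lower and 2.55% either. The 3 were Lcn2, Trf and Cp. The 7 that did not pass were Tfrc, Slc11a2, Heph, Slc40a1, Fth1, Ftl1 and Hmox1. The median log2 fold change of the 10 was 0.11, and that of all tested genes was 0.00. For 4 of the 10 (Lcn2, Trf, Cp and Tfrc) no knockout library overlapped the control range, against 11% of all tested genes. These genes were chosen with earlier results of these data known, so the count is a description.

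**Figure D1:**
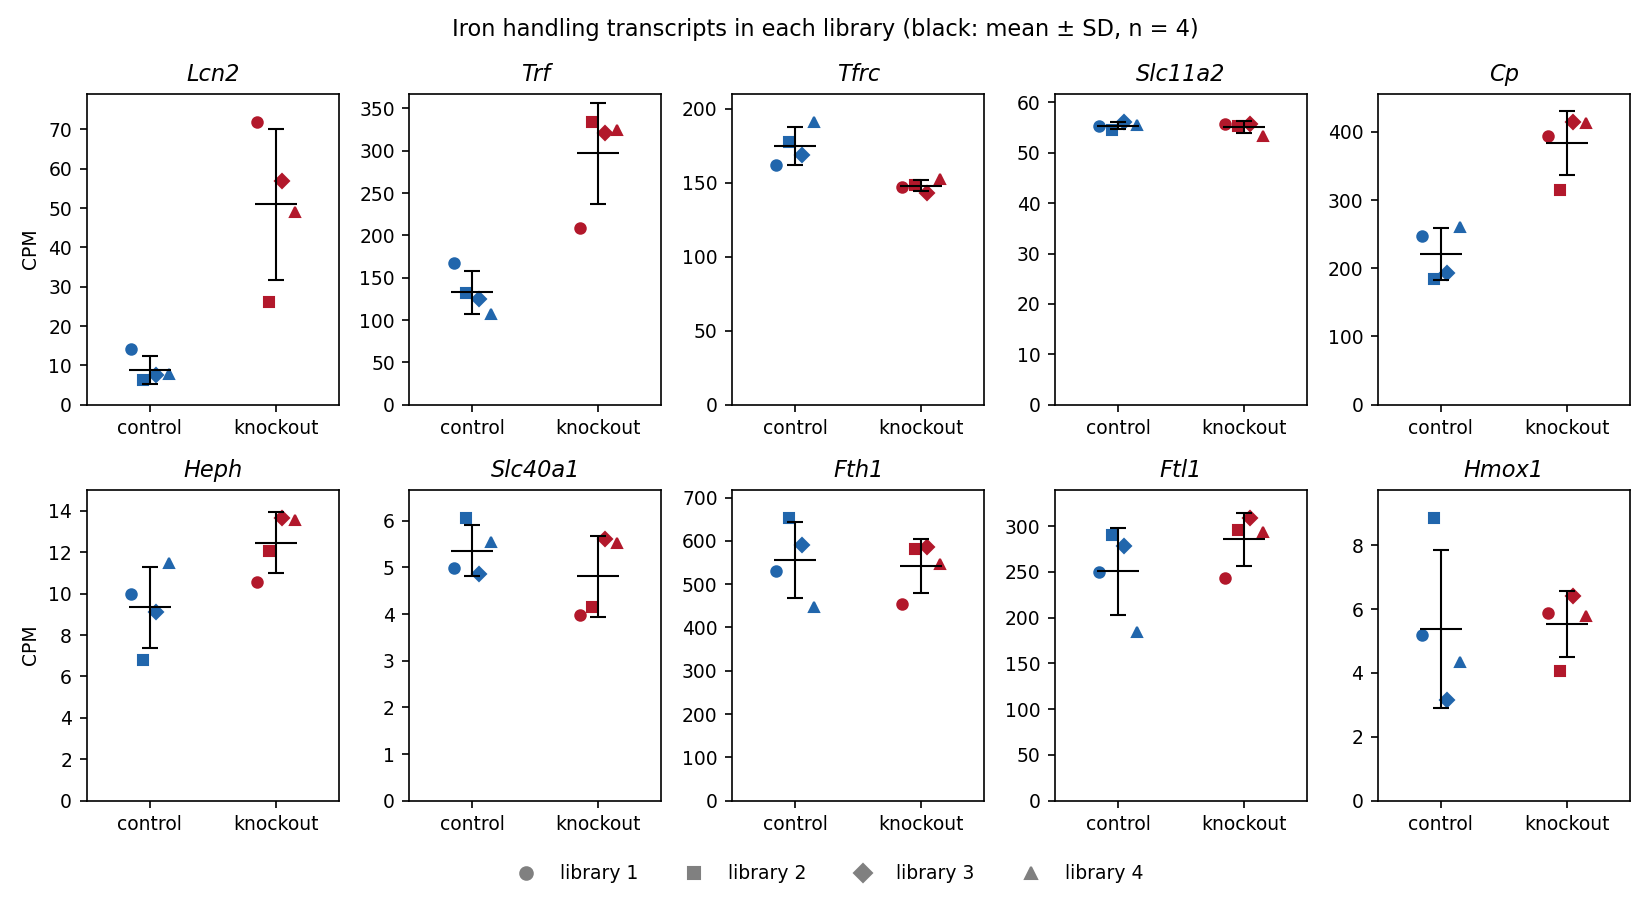
CPM (vertical axes, each starting at 0) of the 10 iron genes in the 4 control and 4 knockout libraries, with a marker shape for each library number and black bars for mean ± SD. Lcn2, Trf and Cp sit higher in all 4 knockouts, Tfrc sits slightly lower in all 4, and the groups overlap for the other 6.

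Per transcript length, the ferritin chains were by far the most abundant of the 10. By the authors' FPKM (counts divided by gene length and by the library total), Fth1 ran from 470 to 681 FPKM over the 8 libraries and Ftl1 from 188 to 312 FPKM, and these ranges did not overlap. Next came Trf (45.5 to 143 FPKM), Cp (24.7 to 56.9 FPKM), Lcn2 (7.13 to 87.6 FPKM) and Tfrc (27.3 to 36.8 FPKM), whose ranges overlapped except for those of Trf and Tfrc. Slc11a2, at 8.51 to 9.21 FPKM, lay below Trf, Cp and Tfrc and inside the range of Lcn2. Hmox1 (1.98 to 5.52 FPKM), Heph (1.12 to 2.30 FPKM) and Slc40a1 (1.19 to 1.71 FPKM) were the lowest; Heph overlapped both of the others, which did not overlap each other. Lcn2 moved most in this order: its mean FPKM was 10.4 ± 4.29 in the control, close to that of Slc11a2, and 60.4 ± 23.6 in the knockout, close to that of Cp (SD, n = 4 each).

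**Figure D2:**
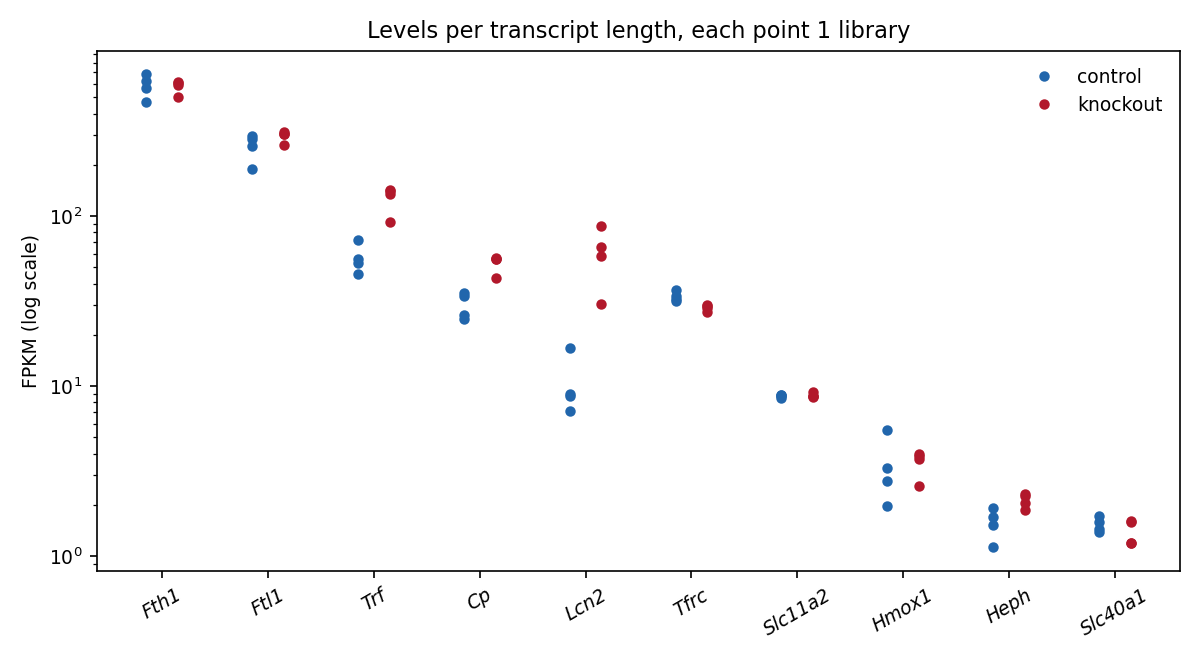
FPKM (log axis) of each gene in the 4 control libraries (blue) and the 4 knockout libraries (red), in order of mean level. Fth1 and Ftl1 stand above the rest at 188 FPKM or more, and Lcn2 spans the widest range, from 7.13 to 87.6 FPKM.

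Lcn2 (Entrez gene 16819, GRCm38.p6 chromosome 2, 32384637 to 32387739) had the largest change of the 10. It was at 71.9, 26.0, 57.0 and 49.1 CPM in knockouts 1 to 4 and at 14.2, 6.19, 7.49 and 7.72 CPM in controls 1 to 4. Knockout 2 was the lowest knockout and control 1 the highest control, and the groups did not overlap. The fold change was 5.73 (log2 2.52, SE 0.30, edgeR adjusted p = 0.00129). It stayed past the threshold with any 1 library left out, with log2 values from 2.30 to 2.84 and adjusted p up to 0.0116. Without the 3 libraries with abundant lens transcripts, which leaves 3 knockouts and 2 controls, the log2 value was 2.17 and the adjusted p 0.0628. In that fit 15 genes of the whole table passed.

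Neutrophils store lipocalin-2 in their granules, and several of their marker genes were almost absent. Ly6g had at most 1 count in any library, Camp at most 3, Ngp at most 2 and Mpo at most 1, beside 897 to 2545 counts of Lcn2 in the knockouts. The neutrophil list summed to 12.8 to 18.0 CPM across knockouts and 8.66 to 17.1 CPM across controls, most of it from Mmp9 and Csf3r, which other cells also express, and the groups overlapped. Of its 13 genes, 12 were in the table and 3 were tested, and none of these 3 passed with edgeR. All 3 log2 fold changes were above 0, from 0.44 to 1.40, with a median of 0.59. The highest was that of S100a9 (edgeR adjusted p = 0.191). Lcn2 is also made by reactive astrocytes, Müller glia, microglia and pigment epithelium. Genes of reactive astrocytes were mostly higher together with it: 6 of 8 tested rose and none fell, where 1.2% of all genes were higher. The median log2 fold change was 0.65, with 7 values above 0 and the lowest at -1.03. The highest, 1.60 for Serpina3n, is counted again among the acute-phase genes below. This list summed to 409 to 522 CPM in the knockout against 274 to 316 CPM in the control. The microglia and macrophage list moved in the same direction, with 8 of 16 genes raised (1.2% of all genes) and sums of 234 to 299 against 133 to 205 CPM. Of 12 Müller glia genes 3 rose (Clu, Vim and Crym) and none fell, with a median log2 fold change of 0.37, and the list summed to 5619 to 7395 CPM in the knockout and 4834 to 6009 CPM in the control, ranges that overlap. Of 10 endothelial genes only Vwf rose with edgeR and none fell, with a median of 0.54 and sums of 200.3 to 224 against 151 to 206 CPM, which also overlap. The microglia sum and the genotype do not overlap and so cannot be told apart: with that sum as a covariate, added after seeing the data, no iron gene was called, and the log2 value was 1.30 for Lcn2, 0.65 for Trf and 0.52 for Cp (edgeR adjusted p from 0.709 to 0.71). The part of neutrophils, reactive astrocytes, Müller glia and endothelium in the Lcn2 result was not tested. In whole tissue, more cells of a type and more RNA per cell cannot be told apart.

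Among 11 tested acute-phase genes that accompany Lcn2, 4 rose and none fell, where 1.2% of all genes were higher and 1.35% lower, with a median log2 fold change of 0.64. Some of these were known from earlier results to differ in these libraries, so they are not independent evidence of a direction. Cebpd, which encodes a C/EBP factor driving acute-phase genes, rose by a log2 value of 1.02 (SE 0.11, adjusted p = 0.000601) and lay between 32.7 and 40.1 CPM in the knockouts and between 15.9 and 20.2 CPM in the controls. Stat3, which carries the signal of interleukin-6 type cytokines, rose by 0.64. Without the 3 lens-rich libraries it was at 0.46 and did not pass (edgeR adjusted p = 0.323), in a fit where 15 genes of the whole table passed. Serpina3n, a protease inhibitor of reactive glia, rose by 1.60. Complement C3 rose by 1.94, a call that needed knockout 3 and controls 2 and 3 (adjusted p up to 0.0692 when 1 of them is left out). C3 also lost the call with robust dispersions (adjusted p = 0.06), on log2(FPKM + 1) (0.0666, at a log2 value of 1.24) and without the 3 lens-rich libraries (0.37). Nfkbiz, a cofactor of NF-kB needed for Lcn2 induction in several cell types and chosen after its value was seen, stood at a log2 value of 0.01 (SE 0.10, adjusted p = 0.963).

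Lcn2 was high and low in the same libraries as a few other genes. Over the 8 libraries its log2 CPM was most like that of Ifitm3, an interferon-induced membrane protein (Pearson r = 0.994), Serping1, the C1 inhibitor (0.99), the protease inhibitor A2m (0.979), the interferon-inducible Ifi204 (0.979) and the zinc transporter Slc39a11 (0.976), among 13271 genes of at least 1 CPM. These values describe likeness only: the groups differ for most of these genes, which alone gives a high r. With the group means removed, r was between 0.848 for Ifi204 and 0.98 for Ifitm3. The genes were picked by r over the same libraries, so this is no separate check.

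**Figure D3:**
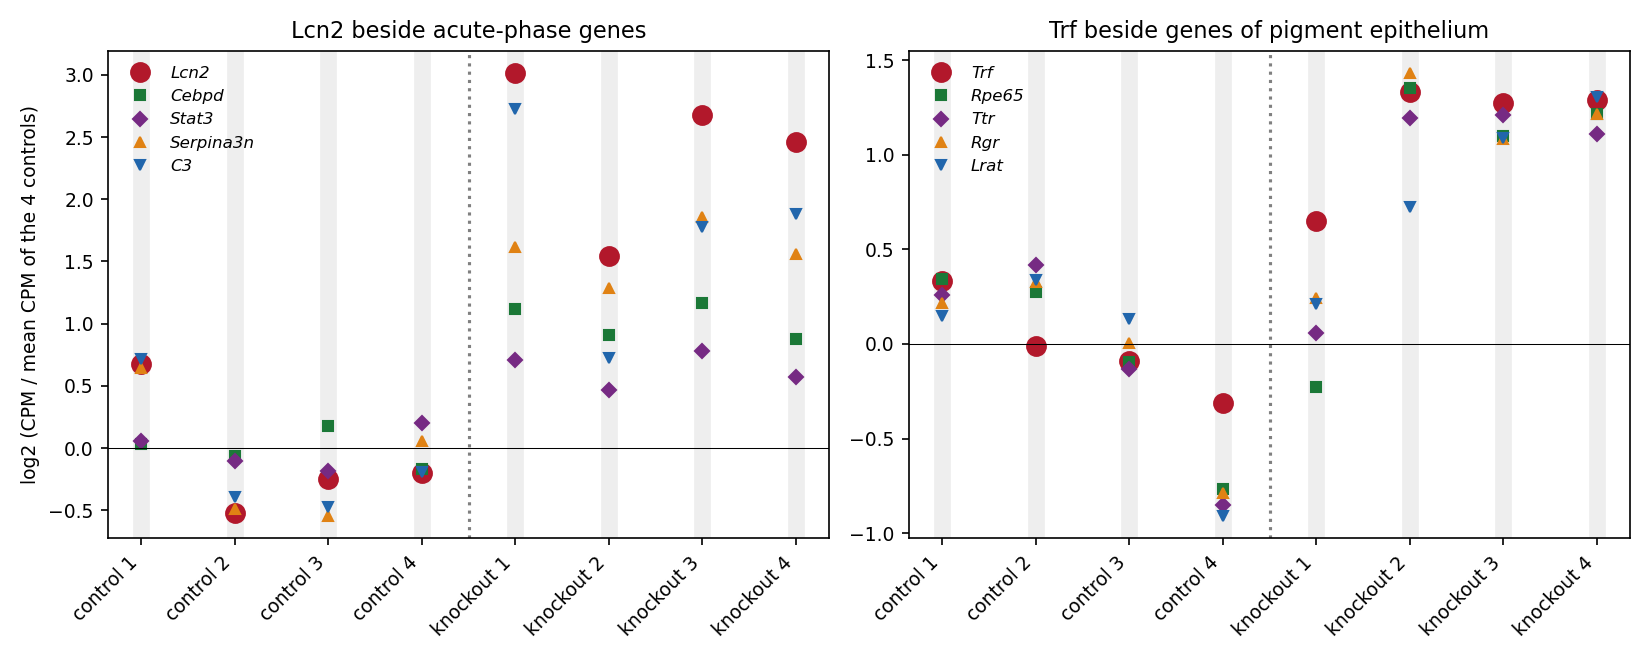
Level of each gene in each library (horizontal axis) as log2 of its CPM over the mean CPM of the 4 controls. On the left, Lcn2 (large red circles), C3 and Serpina3n are lowest among the knockouts in knockout 2 and highest among the controls in control 1. Cebpd and Stat3 are also plotted. With 1 library left out, their log2 fold changes were highest without control 3 (Cebpd, 1.08) and without control 4 (Stat3, 0.71). Those of Lcn2, C3 and Serpina3n were highest without control 1. On the right, Trf (large red circles) and 4 genes of pigment epithelium are lower in knockout 1 than in the other knockouts. Among the controls they are lowest in control 4. These 4 were chosen after their values were seen, from a list of 14 tested genes. In that list 9 log2 fold changes were above 0, the median was 0.06 and the lowest was -0.86.

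The promoter of Lcn2 is printed because its gene changed most and because a regulator of the acute phase, Cebpd, rose with it. RefSeq windows (GRCm38.p6) matched 5 of the 10 genes by symbol: Lcn2, Tfrc, Cp, Fth1 and Ftl1. The 250 bases before the start of Lcn2 (chr2:32387740-32387989, minus strand) read 5′ to 3′ as follows, with the 1 motif match in capitals.
Lcn2: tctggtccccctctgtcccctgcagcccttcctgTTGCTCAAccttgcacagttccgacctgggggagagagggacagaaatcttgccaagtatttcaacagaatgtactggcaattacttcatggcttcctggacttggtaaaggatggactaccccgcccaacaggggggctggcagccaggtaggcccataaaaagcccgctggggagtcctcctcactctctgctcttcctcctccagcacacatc
The match is to the C/EBP motif TTGCNNAA, 216 to 209 bases before the start, and 9.56% of 32851 promoter windows of this length hold one on either strand. The other motifs searched on both strands were STAT (TTCNNNGAA, in 7.02% of windows), NF-kB (1.41%), the interferon-stimulated response element (2.98%), the antioxidant response element (TGACNNNGC, 10.2%) and the hypoxia response element (ACGTG, 16.6%), and none of them has a match in this window. Of the 2 windows of Cp, 1 held a C/EBP match as well, 70 to 63 bases before the start. So did 1 of the 2 windows of Fth1, whose transcript did not pass, at 129 to 122 and at 58 to 51 bases before the start. The only other match was of the hypoxia motif in 1 of the 2 windows of Tfrc, 228 to 224 bases before the start. A match is a description of letters and not a bound site.

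Lipocalin-2 enters cells through Slc22a17 and megalin (Lrp2), and neither passed with edgeR over all 8 libraries. The values leaned opposite ways. Slc22a17 was at 117 to 130 CPM in the knockouts and at 78.7, 76.0, 65.6 and 124 CPM in controls 1 to 4 (log2 fold change 0.53, SE 0.16, adjusted p = 0.0872), and control 4 alone lay within the knockout range. Lrp2 was at 26.3 to 30.2 CPM in the knockouts and 32.1 to 45.1 CPM in the controls (log2 fold change -0.43, SE 0.12, adjusted p = 0.0671). At an unadjusted p of 0.05 both counted as different, and DESeq2 called Slc22a17 higher and Lrp2 lower. Without control 4, a fit in which 18.7% of all genes passed, edgeR called both: Slc22a17 was then at 0.76 (adjusted p = 0.000153) and Lrp2 at -0.50 (adjusted p = 0.00572). Slc22a17 also passed without the filter on low counts (adjusted p = 0.0358) and with the summed pigment epithelium genes as a covariate (0.0366, or 0.0273 without Rlbp1).

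Trf (Entrez gene 22041, chromosome 9, 103208876 to 103230286) was more than doubled in the mean. It was at 208, 334, 321 and 325 CPM in knockouts 1 to 4 and at 167, 132, 125 and 107 CPM in controls 1 to 4. Knockout 1 stood well below the other knockouts but above every control. The fold change was 2.24 (log2 1.16, SE 0.16, edgeR adjusted p = 0.00349). Every fit that left out 1 library kept the call, with log2 values from 1.07 to 1.29 and adjusted p up to 0.0195. Without the 3 lens-rich libraries, a fit where 15 genes of the whole table passed, the log2 value was 1.08 and the adjusted p 0.149.

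Transferrin of the retina is made by pigment epithelium, by photoreceptors and by glia, and in other nervous tissue by oligodendrocytes. Of the pigment epithelium genes, Rpe65 and Ttr are given by library; they were chosen after their values were seen. Rpe65, the isomerase of the visual cycle, was at 9.24, 27.6, 23.1 and 25.1 CPM in knockouts 1 to 4 and at 13.7, 13.1, 10.1 and 6.36 CPM in controls 1 to 4. Ttr, a carrier of thyroid hormone and retinol, was at 52.2, 115, 116 and 108 CPM in the knockouts and at 60.2, 67.1, 45.8 and 27.8 CPM in the controls. For both, knockout 1 was below the other knockouts and inside the control range, and control 4 was the lowest library. In Trf, control 4 was likewise the lowest library and knockout 1 the lowest knockout.

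The whole pigment epithelium list did not separate the groups. Of its 14 tested genes 1 rose, Rgr (log2 fold change 1.06, adjusted p = 0.0444), and none fell, where 1.2% of all genes were higher and 1.35% lower. The list median was 0.06, with 9 values above 0 and the lowest at -0.86. Its pigment genes Dct, Tyrp1 and Pmel, which make or organise melanin, had log2 fold changes of -0.31, -0.44 and -0.58, all with adjusted p of 0.423 or more. Summed without Rlbp1, which Müller glia also express, the list reached 173, 343, 341 and 355 CPM in knockouts 1 to 4 and 300, 243, 168 and 114 CPM in controls 1 to 4. Unlike for Trf, controls 1 and 2 thus lay above knockout 1. With that sum as a covariate, an alternative added after seeing the data, the log2 value of Trf was 0.86 in place of 1.16, with adjusted p = 0.00112. Oligodendrocyte genes summed to 60.9 to 68.3 CPM across knockouts and 62.5 to 64.2 CPM across controls. None of the 6 tested passed with edgeR, and Mog, Mobp and Olig1 had at most 7 counts in any library.

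The genes most like Trf over the 8 libraries were Tmem127 (Pearson r = 0.987), the metallothionein Mt1 (0.982), the retinaldehyde dehydrogenase Aldh1a1 (0.977), the folate enzyme and astrocyte marker Aldh1l1 (0.975) and Yipf2 (0.972). With the group means removed, r lay between 0.823 for Yipf2 and 0.923 for Tmem127. These genes were picked by r over the same libraries, so these values too describe likeness only. Lcn2 and Trf had r = 0.83 over all libraries but -0.11 with the group means removed: knockout 1 was the highest knockout for Lcn2 and the lowest for Trf, and knockout 2 the reverse.

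The receptor of transferrin moved little, in the other direction. Tfrc (Entrez gene 22042, chromosome 16, 32608896 to 32632794) was at 147, 148, 143 and 152 CPM in knockouts 1 to 4 and at 162, 178, 169 and 191 CPM in controls 1 to 4. All knockouts lay below all controls, and the log2 fold change was -0.24 (SE 0.08). It did not pass over all genes (edgeR adjusted p = 0.116, unadjusted p = 0.00992), where 10.8% of genes were lower at an unadjusted p of 0.05. DESeq2, which called 8.47% of all genes in either direction, called it lower (adjusted p = 0.0495). This is the gene with the 4 3′ UTR hairpins printed above. Aco1 and Ireb2, which encode the iron regulatory proteins, had log2 fold changes of 0.18 (adjusted p = 0.239) and -0.20 (adjusted p = 0.172). The groups did not overlap for either, as for 11% of all tested genes. Slc11a2 was the steadiest of the 10, at 53.3 to 55.8 CPM in the knockouts and 54.5 to 56.2 CPM in the controls (log2 fold change -0.01, SE 0.07, adjusted p = 0.96).

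Of the 2 iron oxidases, ceruloplasmin rose. Cp (Entrez gene 12870, chromosome 3, 19956933 to 20009750) was at 393, 316, 415 and 413 CPM in knockouts 1 to 4 and at 247, 184, 194 and 261 CPM in controls 1 to 4. Knockout 2 was again the lowest knockout, as for Lcn2, and the groups did not overlap. The fold change was 1.73 (log2 0.79, SE 0.13, edgeR adjusted p = 0.00865), and with 1 library left out it ran from 0.72 to 0.88 with adjusted p up to 0.0412. Without the 3 lens-rich libraries, a fit where 15 genes of the whole table passed, the log2 value was 0.57 with adjusted p = 0.288. Cp overlaps Hps3 on the other strand, which held 2397 to 3230 counts against 5863 to 14819 for Cp, and without a known strand setting reads of the shared stretch cannot be told apart. Cp varied with Lcn2 among libraries of the same genotype too, with r = 0.71 after removal of the group means.

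Heph, the membrane-bound relative of ceruloplasmin, was far less abundant. It lies on the X chromosome (96455436 to 96574485) and was at 10.6, 12.1, 13.7 and 13.6 CPM in knockouts 1 to 4 and at 9.97, 6.79, 9.12 and 11.5 CPM in controls 1 to 4. Knockout 1 lay inside the control range. The log2 fold change of 0.42 (SE 0.16) did not pass (adjusted p = 0.172), but without control 4, where 18.7% of all genes passed, it was 0.53 and passed (adjusted p = 0.0284). Xist, expressed from an inactive X chromosome, held 97550 to 119479 counts in the knockouts and 108626 to 164308 in the controls. Of the Y-linked genes, Kdm5d had between 452 and 963 counts in each knockout but no more than 4 in a control, while Eif2s3y had no more than 6 in any library; their bearing on Heph was not tested. Slc40a1, the exporter whose iron these enzymes oxidise, was at 3.99 to 5.60 CPM in the knockouts and 4.87 to 6.06 CPM in the controls (log2 fold change -0.16, SE 0.18, adjusted p = 0.646).

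**Figure D4:**
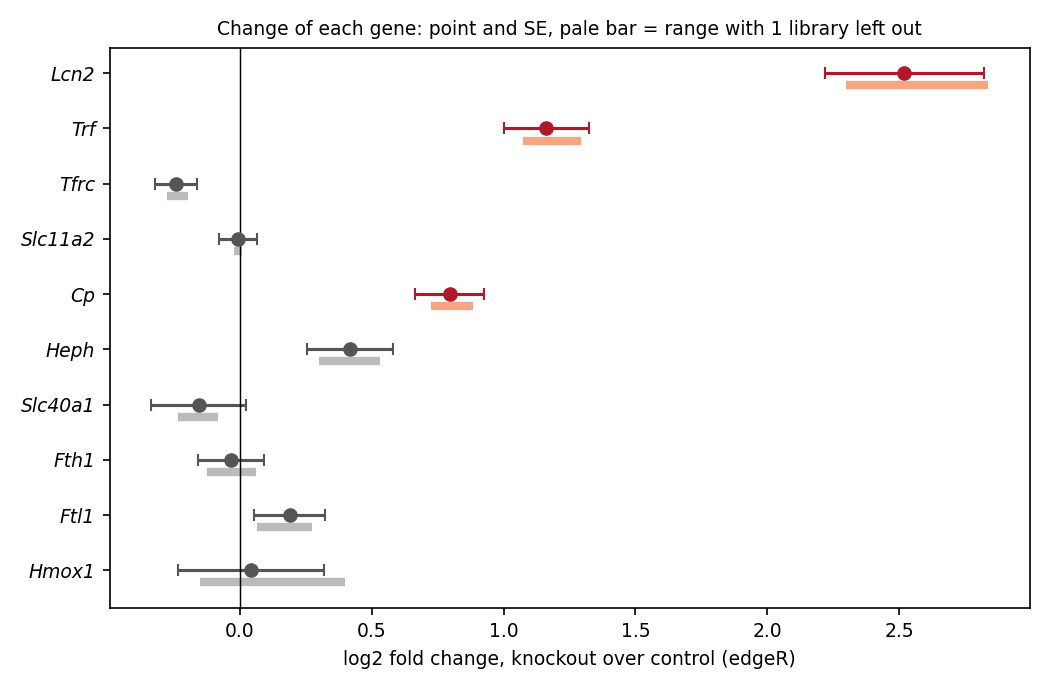
Log2 fold change of each gene, knockout over control (points), with its SE (thin bars); the pale bar under each point is the range when each of the 8 libraries is left out in turn. Red marks Lcn2, Trf and Cp, the genes past the threshold, whose ranges stay above 0.72, while the bars of Fth1, Slc11a2 and Hmox1 cross 0.

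Copper supply bears on both oxidases. Of 7 tested genes 2 rose and none fell, beside 1.2% and 1.35% of all genes, and the median log2 fold change was -0.05. Both were metallothioneins, small proteins that bind zinc and copper. Mt1 rose by 0.77 (SE 0.11, adjusted p = 0.00349) and Mt2 rose by 0.85 (SE 0.12, adjusted p = 0.00478), and each kept the call with any 1 library left out. Without the 3 lens-rich libraries neither passed (adjusted p = 0.0996 for Mt1 and 0.0628 for Mt2). Atp7b, a copper pump that loads ceruloplasmin in liver, was at 20.9 to 24.9 CPM in the knockouts and 25.3 to 32.7 CPM in the controls, and did not pass (log2 fold change -0.42, SE 0.11, adjusted p = 0.0585). It was chosen after its value was seen. With DESeq2, 2 of the 7 copper genes were called higher and 1 lower, beside 3.82% and 4.64% of all genes.

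The ferritin transcripts did not pass. Fth1 (chromosome 19, 9980600 to 9985111, 19.4 Mb from Cd274) was at 454, 581, 586 and 548 CPM in knockouts 1 to 4 and at 531, 653, 591 and 446 CPM in controls 1 to 4, with log2 fold change -0.04 (SE 0.13, adjusted p = 0.899). Ftl1 was at 244, 295, 309 and 294 CPM in the knockouts and at 250, 291, 278 and 184 CPM in the controls, with log2 fold change 0.19 (SE 0.13, adjusted p = 0.433). For both chains knockout 1 was the lowest knockout and control 4 the lowest control, so the spread between libraries was shared. The ratio of Fth1 to Ftl1, both in FPKM, was steadier than either: 1.92, 2.02, 1.95 and 1.92 in the knockouts and 2.19, 2.31, 2.19 and 2.50 in the controls. The groups did not overlap in this ratio, which was chosen after the values were seen and is given without a test. Processed copies of ferritin genes are common in the mouse genome, and the sources used here do not say how reads that fit several places were counted. The 3 ferritin-related genes beside them in the table, Fthl17a, Fthl17f and Ftl1-ps2, held at most 21 counts in a library. Protein made from these messengers, which the printed 5′ UTR hairpins control, is not measured by counts.

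Hmox1, the inducible haem oxygenase, was low and variable. It was at 5.88, 4.06, 6.41 and 5.78 CPM in knockouts 1 to 4 and at 5.17, 8.86, 3.14 and 4.35 CPM in controls 1 to 4, so the controls enclosed all the knockouts. The log2 fold change was 0.04 (SE 0.28, adjusted p = 0.95). In the same libraries the 4 haemoglobin transcripts, the haem carriers of red cells, summed to 1.59 to 4.03 CPM in the knockouts and 9.86 to 14.1 CPM in the controls. All 4 fell, where 1.35% of all genes were lower, with a list median of -2.28. Whether the amount of blood in a sample bears on Hmox1 was not tested.

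On the further lists, of iron and haem handling and of acute-phase companions, the genes that passed with edgeR all rose. Of 103 further genes on 11 lists, 102 were in the table and 95 were tested. Of these, 7 rose, 88 did not pass and none fell, that is 7.37% beside 2.55% of all tested genes. Their median log2 fold change was 0.09. The 7 were Steap4, Mt1, Mt2, Cebpd, Stat3, Serpina3n and C3. Of these, 4 come from the acute-phase list of 11 tested genes, some known from earlier results to differ. The 7.37% is thus not a share of iron and haem genes alone. Iron uptake gave 1 of 13 tested genes, copper supply 2 of 7, and the other 8 lists none of 64. Over all 11 lists DESeq2 called 15 higher and 4 lower, where it called 3.82% of all genes higher and 4.64% lower.

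Among 13 genes of iron uptake and reduction 1 rose, where 1.2% of all genes were higher. Steap4, a ferric and cupric reductase induced in inflammation, was at 8.51, 3.13, 8.40 and 5.55 CPM in knockouts 1 to 4 and at 3.17, 0.911, 0.832 and 1.89 CPM in controls 1 to 4. Its log2 fold change of 1.91 (SE 0.42) passed, with adjusted p = 0.0351. Knockout 2, the lowest knockout for Lcn2 and Cp as well, lay below control 1, and leaving out any 1 of knockouts 1, 3 and 4 and controls 2 and 3 removed the call (adjusted p up to 0.13). So did the fits on log2(FPKM + 1) (0.0587) and log2(FPKM + 0.1) (0.0515) and the fit without the 3 lens-rich libraries (0.549). Tfr2, the receptor of transferrin that acts in liver and erythroid cells, had a log2 fold change of 0.17 (adjusted p = 0.68) and was chosen after its value was seen.

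In 8 lists no gene passed with edgeR: lipocalin-2 receptors, iron sensing, ferritin loading and turnover, haem synthesis, haem breakdown and scavenging, iron-sulphur assembly, NRF2 with its targets, and ferroptosis. Together they held 64 tested genes. At an unadjusted p of 0.05 there were 11 higher and 8 lower, beside 10.5% and 10.8% of all genes. DESeq2 called 4 higher and 3 lower, beside 3.82% and 4.64%, and limma-voom called none. Without control 4, edgeR called Hfe, Fbxl5, Pcbp1, Flvcr2, Hmox2, Txnrd1, G6pdx and Alox15 of the genes named below, in a fit where 18.7% of all genes passed (adjusted p from 0.00341 for G6pdx to 0.0467 for Hmox2). The sensing gene with the smallest p was Hfe, which pairs with transferrin receptors, at a log2 fold change of -0.41 (adjusted p = 0.0732), followed by Fbxl5, the iron-sensing subunit that degrades an iron regulatory protein, at -0.22 (adjusted p = 0.155). Hamp, the hormone hepcidin that removes ferroportin, averaged 0.879 ± 0.496 CPM over the knockouts and 0.619 ± 0.203 CPM over the controls (SD, n = 4 each), and did not pass (adjusted p = 0.536).

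No haem gene passed with edgeR over all 8 libraries, and DESeq2 called Flvcr2 higher (adjusted p = 0.0164). In synthesis, where none of 8 tested genes passed even an unadjusted p of 0.05, Uros had a log2 fold change of -0.18 (adjusted p = 0.46) and Ppox one of -0.12 (adjusted p = 0.505). In breakdown and scavenging, the transporter Flvcr2 was at 0.80 (adjusted p = 0.0776) and the constitutive haem oxygenase Hmox2 at 0.28 (adjusted p = 0.119). The groups did not overlap for either, as for 11% of all tested genes.

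For ferritin loading and turnover, the iron chaperone Pcbp1 was at 0.29 (adjusted p = 0.171) and Ncoa4, the receptor for ferritin breakdown, at 0.11 (adjusted p = 0.477). In iron-sulphur assembly, Ciapin1 was at 0.15 (adjusted p = 0.332).

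NRF2 is the oxidative stress factor that also induces Hmox1 and the ferritin genes. Among it and its targets Txnrd1, a thioredoxin reductase, was at 0.29 (adjusted p = 0.0863) and G6pdx, which supplies reducing power, at 0.38 (adjusted p = 0.0995). Ferroptosis is a form of cell death driven by iron and lipid peroxides. The lipoxygenase Alox15 was at -0.59 (adjusted p = 0.0851) and the prostaglandin synthase Ptgs2 at 1.33 (adjusted p = 0.123), the latter from means of 0.627 and 0.247 CPM that rest on few reads.

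**Figure D5:**
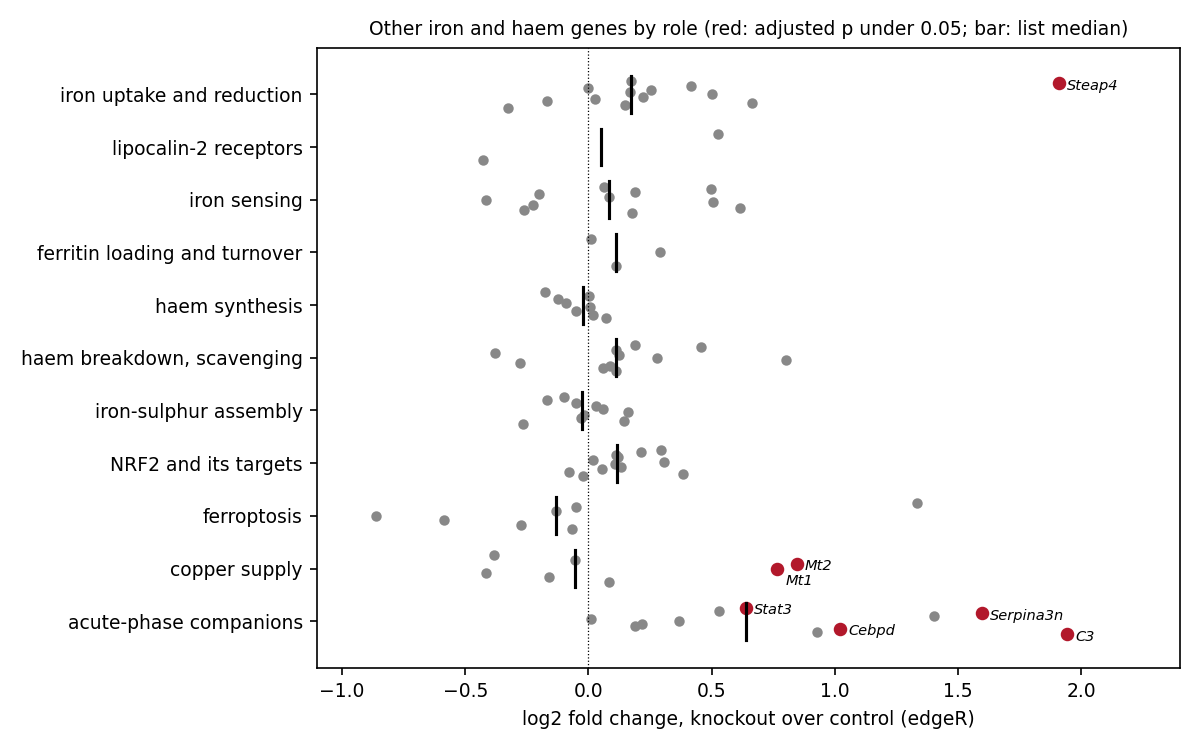
Log2 fold change, knockout over control, of the other tested iron and haem genes (points), by role; black bars mark each list's median and red points are past an adjusted p of 0.05. Called genes occur in 3 of the 11 lists, namely iron uptake (Steap4), copper supply (Mt1, Mt2) and acute-phase companions, while haem synthesis stays close to 0.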

How the data were processed

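Messenger RNA of mouse retina was sequenced in 8 libraries. Per the submitters' processing notes, fastp, HISAT2 and HTSeq were used with build mm10; the sources used here name no version, annotation or strand setting. The deposited table of raw counts, made by the authors, was tested. The deposited FPKM table, also the authors', was used to order genes by level per length and in an alternative. Columns were matched to samples by title.

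The tests were run in edgeR 4.0.16 (R 4.3.3): TMM scaling, filterByExpr (minimum count 10, minimum total 15), and a quasi-likelihood test of knockout against control over all genes, two-sided, Benjamini-Hochberg adjusted, threshold 0.05, checked on simulated counts. SE is the absolute log2 fold change over the square root of F. CPM use TMM-scaled libraries, in which 1 count is 0.028 to 0.0314 CPM. Alternatives used DESeq2 1.42.0 and limma 3.58.1. Likeness is Pearson's r of log2 CPM (prior count 2), naming the 5 highest genes of at least 1 CPM, with gene models named Gm, Rik or LOC left out.

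Besides the 10 genes, each list's up to 4 genes past the threshold with the smallest p are named, or the 2 with the smallest p where none pass; 1 gene this rule takes is not reported here. From the same lists, Aco1, Ireb2, Hamp, Tfr2, Atp7b and Nfkbiz are named outside this rule. The members and lists were chosen with earlier results of these data known.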

Additional observations from a re-analysis of the deposited data

Results flagged for a closer look

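Trf in knockout 1, at 208 CPM, lay far from the other knockouts, at 321 to 334 CPM. It was the 1 sample so far from its group among the 20 sets of 4 libraries checked (10 genes, 2 groups), and chance gives about 1 in 20. Without knockout 1 the log2 fold change of Trf was 1.29 in place of 1.16.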

How the results depend on the processing

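The results were recomputed under 25 alternatives, 23 of them planned and 2 added after seeing the data. The count of iron genes called was 3 in every planned setting except DESeq2 and the fit without control 4 (4 each) and the fit without the 3 lens-rich libraries (0); with the microglia sum as a covariate, an added alternative, it was 0. That sum does not overlap between the groups, and 10 genes of the whole table and none of the other iron and haem genes were then called. Without the lens-rich libraries these counts were 15 and 2, with fewer samples. With the lens sum as a covariate over all 8 libraries, Lcn2, Trf and Cp passed (edgeR adjusted p from 0.00177 to 0.0146).

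The 430 genes of the whole table became 690 without a filter on low counts, 1320 with DESeq2, 228 on log2(FPKM + 1) and 268 with the lens sum as a covariate, and 108 to 3209 with 1 library left out, the highest without control 4. The other iron and haem genes called, 7 in the report, were 19 with DESeq2 and 5 to 25 with 1 library left out, the highest again without control 4. The cause was not tested.

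The title number as a replicate block gave 228 genes in all and 3 iron genes. Same-numbered libraries had correlations of deviations of 0.213, -0.041, 0.121 and 0.00629, and 3 libraries correlated best with their own number. With so few libraries in each group, these values cannot settle whether the numbers pair the libraries.

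With the microglia sum the adjusted p was 0.709 for Lcn2 and Trf and 0.71 for Cp, at log2 values of 1.30, 0.65 and 0.52. Single genes were refitted for the 10 iron genes and for the other iron and haem genes that the naming rule takes; among these, signs turned only for genes that had not passed. Slc11a2 was 0.0114 with library size only, 0.0101 on log2(FPKM + 1), 0.011 on log2(FPKM + 0.1), 0.0025 with the pigment epithelium sum without Rlbp1 and 0.0205 with the microglia sum, and it ran from -0.0218 (without knockout 1) to 0.0076 (without knockout 4). Fth1 was 0.118 without the lens-rich libraries and 0.0783 with the lens sum, and ran from -0.126 (without control 4) to 0.0594 (without control 2). Hmox1 was -0.0158 with the pigment epithelium sum, -0.0939 with that sum without Rlbp1 and -0.872 with the microglia sum, and ran from -0.154 (without control 3) to 0.398 (without control 2). With the microglia sum Ftl1 was -0.0089 and Ncoa4 was -0.0077, and Ppox was 0.00078 without the lens-rich libraries. Genes under 1 CPM, such as Hamp and Ptgs2, rest on few reads.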
